A study of Mus musculus with 35 samples.

Results

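The endogenous opioid system of the mouse striatum was examined through 8 genes of the count table, out of 39017 genes listed there. They were the opioid peptide precursors Penk, Pdyn and Pnoc, the opioid receptors Oprd1, Oprk1 and Oprm1, the nociceptin receptor Oprl1, and Npbwr1, the receptor for neuropeptides B and W. The genes were taken by symbol. Some of them were chosen by values of these same libraries: Oprk1 and Npbwr1 for a lower level in the Hdac2 KO groups, and Penk for a lower level in HttQ111/+ than in Htt+/+ striata. For those gene and comparison pairs the values and fold changes are a description, and no test is given. Other comparisons of these genes share libraries with those pairs, so their p-values may not be independent of the choice.

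Striatal mRNA of 35 mice aged 21.71 to 23 weeks had been sequenced, with 1 library per mouse. There were 8 Htt+/+ Hdac2 WT mice (5 males, 3 females), 7 HttQ111/+ Hdac2 WT mice (4 males, 3 females), 9 Htt+/+ Hdac2 KO mice (5 males, 4 females) and 11 HttQ111/+ Hdac2 KO mice (8 males, 3 females). HttQ111 is a huntingtin knock-in allele with an expanded CAG repeat, recorded at 110 to 144 repeats in the carriers and at 7 repeats in Htt+/+ mice. Hdac2 KO mice were homozygous for a floxed allele of Hdac2, a class I histone deacetylase, and carried a Cre transgene driven by Ppp1r1b regulatory sequence, which acts in medium-spiny neurons (MSNs), so other striatal cells kept an intact gene. The Hdac2 WT mice were recorded as floxed without Cre, apart from a pair of Htt+/+ mice of ID series A with a single floxed allele, and none of them carried Cre, so deletion and Cre cannot be told apart. Mice belonged to ID series V, A or Z. RNA extraction dates nearly followed the Hdac2 genotype: the Hdac2 WT libraries were extracted on 24, 25 and 27 May and the Hdac2 KO libraries on 26 May, 31 May and 3 June, except 1 HttQ111/+ Hdac2 KO library on 25 May and 1 Htt+/+ Hdac2 KO library on 27 May.

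Opioid peptides are cut from large precursors and act on receptors coupled to inhibitory G proteins, which lower cyclic AMP, open inwardly rectifying potassium channels and close calcium channels. In the striatum, Penk marks MSNs of the indirect pathway, which project to the external pallidum and express the D2 dopamine receptor. Pdyn is made by MSNs of the direct pathway, which express the D1 receptor, and its product dynorphin acts on the kappa receptor, encoded by Oprk1. Enkephalin acts on the delta (Oprd1) and mu (Oprm1) receptors, the mu receptor being known for its concentration in striosomes. Nociceptin, from Pnoc, acts on Oprl1, and the Npbwr1 receptor is a relative of the opioid receptors that binds other peptides.

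The precursors differ in the opioid core, a stretch of 5 codons that begins the active peptides. It is shown here because the report compares these precursors as different sources of enkephalin, dynorphin and nociceptin. The coding sequences were read from the GRCm38 reference in coding direction, all on the minus strand, and the fifth codon is in capitals. It encodes methionine (ATG) in Met-enkephalin, leucine (CTG or TTG) in Leu-enkephalin and the dynorphins, and threonine (ACC) in nociceptin. Penk exon 2 held 7 copies, 6 with methionine and 1 with leucine, and a methionine and the single leucine copy are given. Pdyn exon 4 held 3 copies, all with leucine, and Pnoc exon 3 held 1.
Penk copy 1, chr4:4134334-4134348: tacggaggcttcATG
Penk copy 6, chr4:4133941-4133955: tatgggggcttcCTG
Pdyn copy 1, chr2:129688238-129688252: tatggcggctttTTG
Pdyn copy 2, chr2:129688130-129688144: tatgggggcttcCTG
Pdyn copy 3, chr2:129688073-129688087: tatggtggtttcCTG
Pnoc copy 1, chr14:65404878-65404892: tttgggggcttcACC
Penk copy 6 and Pdyn copy 2 had the same 15 bases. The gene counts cover the whole precursor transcript and do not separate the peptides.

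Libraries held 51403599 to 65315161 counts and 1 held 78158006. Levels are given as CPM, the counts of a gene over the TMM-scaled size of its library, and fold changes come from an edgeR quasi-likelihood fit of all libraries with surrogate variables, adjusted over all genes tested. All 8 members passed the count filter in every comparison. Hdac2, the targeted gene, was at 103 ± 3.4, 105 ± 4.8, 94.4 ± 3.0 and 95.2 ± 3.5 CPM (SD) in Htt+/+ Hdac2 WT, HttQ111/+ Hdac2 WT, Htt+/+ Hdac2 KO and HttQ111/+ Hdac2 KO striata (n = 8, 7, 9 and 11), a log2 difference of -0.09 (adjusted p = 0.0552) in Htt+/+ and -0.12 (adjusted p = 0.00198) in HttQ111/+ striata. Counts covered the whole gene, exons outside the floxed part included. The cortical marker Slc17a7 stood at 346 CPM in HttQ111/+ Hdac2 WT replicate 7, 132 CPM in Htt+/+ Hdac2 KO replicate 6 and 106 CPM in Htt+/+ Hdac2 KO replicate 2, and at 67.4 CPM or less elsewhere.

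Per kilobase of annotated exon within the counted interval, the members spanned a wide range in Htt+/+ Hdac2 WT striata (n = 8). Penk was the highest at 1179 ± 69 CPM per kb (SD). Pdyn followed at 44.2 ± 13 CPM per kb and Oprd1, the most abundant of the receptors, at 10.0 ± 0.89 CPM per kb. Oprl1 was at 4.45 ± 0.31 CPM per kb and Oprk1 at 2.60 ± 0.60 CPM per kb, and the libraries of these neighbours did not overlap (lowest Oprl1 4.04, highest Oprk1 3.63). The annotation extends both genes past the counted end, and over all annotated exons they were at 2.54 ± 0.18 and 1.75 ± 0.41 CPM per kb and overlapped. Oprm1 was at 0.659 ± 0.17 CPM per kb. Counts within introns are included throughout, and their share of each value was not tested. Pnoc at 0.216 ± 0.079 and Npbwr1 at 0.201 ± 0.091 CPM per kb did not differ beyond their spread, and both rested on few reads (6 to 63 counts per library for Pnoc, 14 to 148 for Npbwr1).

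**Figure D1:**
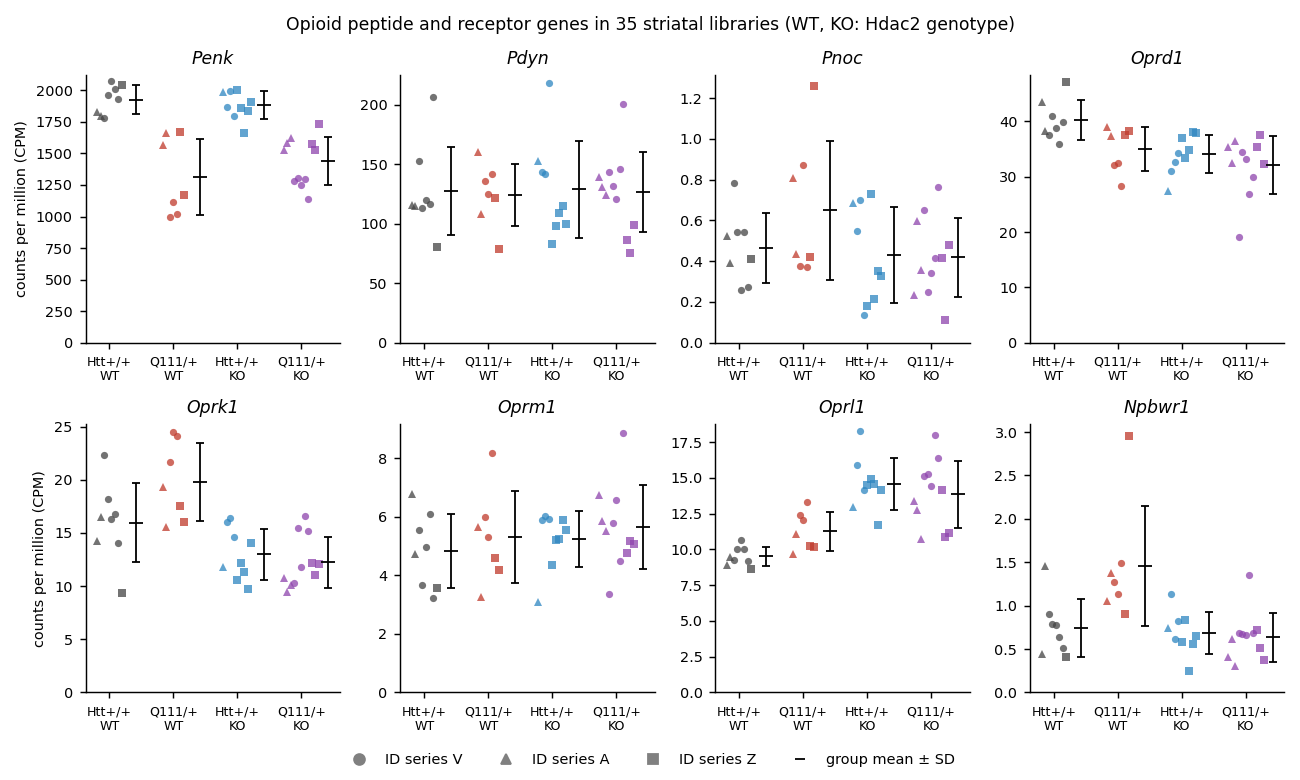
CPM of each gene (vertical axes, linear from 0) in every library of the 4 genotype groups. Circles, triangles and squares are mice of ID series V, A and Z, and bars give the group mean ± SD. Penk sits between 1660 and 2070 CPM in both Htt+/+ groups and reaches down to 995 CPM in carriers, and Oprl1 is at 8.65 to 10.7 CPM in Htt+/+ Hdac2 WT against 11.7 to 18.3 CPM in Htt+/+ Hdac2 KO libraries.

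Penk, the enkephalin precursor (chr4:4133531-4138819, minus strand), was lower in both carrier groups. Lowest, median and highest levels were 1781, 1946 and 2070 CPM in Htt+/+ Hdac2 WT striata and 995, 1166 and 1666 CPM in HttQ111/+ Hdac2 WT striata, and these groups did not overlap. In Hdac2 KO striata they were 1660, 1867 and 2005 CPM without the allele and 1139, 1523 and 1729 CPM with it, with an overlap at the top of the carrier range. The fitted log2 difference was -0.49 ± 0.10 (SE) in Hdac2 WT, which is 0.711-fold, and -0.36 ± 0.08 (SE) in Hdac2 KO, which is 0.778-fold. These pairs were used to choose Penk and carry no test. In bulk tissue, fewer Penk-expressing cells and less Penk RNA per cell cannot be told apart.

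Indirect-pathway markers are given beside Penk. The 4 markers Drd2, Adora2a, Gpr6 and Sp9 summed to 699 to 843 CPM in Htt+/+ Hdac2 WT, 490 to 733 CPM in HttQ111/+ Hdac2 WT, 695 to 829 CPM in Htt+/+ Hdac2 KO and 516 to 745 CPM in HttQ111/+ Hdac2 KO libraries. In Hdac2 WT striata 1 of the 4 fell with HttQ111 (Gpr6, log2 -0.33, adjusted p = 0.0159), where 0.403% of all genes tested were called, and the list's median was -0.27. In Hdac2 KO striata 0 of the 4 were called by edgeR and 3 had an unadjusted p under 0.05. Sp9 was at 18.7 ± 1.9 CPM in Htt+/+ and 19.7 ± 3.0 CPM in HttQ111/+ Hdac2 WT striata (SD). Of the 7 direct-pathway markers 1 fell (Drd1a, the D1 receptor, log2 -0.22, adjusted p = 0.0439), with a list median of -0.08 and sums of 941 to 1108 CPM without and 739 to 988 CPM with the allele. Among markers of all MSNs, Ppp1r1b, Rgs9 and Pde10a fell, and Bcl11b and Foxp1 were not called. None of these markers was at 0 in all libraries of a group, and their part in the Penk difference was not tested.

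Among carriers, Penk was lower in mice of ID series V, which had 131 to 144 repeats, than in mice of series A and Z, which had 110 to 118. In HttQ111/+ Hdac2 WT striata the 3 series V libraries were at 995, 1020 and 1116 CPM, and the 4 others at 1166, 1563, 1659 and 1666 CPM. In HttQ111/+ Hdac2 KO striata the 5 series V libraries spanned 1139 to 1304 CPM with a median of 1284, and the 6 others 1523 to 1729 CPM with a median of 1575. The series did not overlap in either carrier group. Without the allele they did, at 1950 ± 108 CPM (SD, n = 5) for V and 1887 ± 133 CPM (n = 3) for A and Z in Hdac2 WT, and at 1888 ± 101 CPM (n = 3) and 1877 ± 126 CPM (n = 6) in Hdac2 KO striata.

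The difference between the series in carriers, less that in Htt+/+ mice, was -0.47 ± 0.08 (log2, SE; edgeR adjusted p = 0.00455). Penk was the only member of 8 called in this comparison, in which 0.121% of all genes tested were called. Penk had been chosen on values of these same libraries, though by the comparison of HttQ111/+ with Htt+/+. The call was lost with replicate number as a block (log2 -0.44, adjusted p = 0.0589), and without HttQ111/+ Hdac2 WT replicate 7, the Z library at 1166 CPM and with the highest Slc17a7, the difference was -0.52 (adjusted p = 2.33e-05). Series and repeat length cannot be told apart in carriers. Extraction dates also differed between the series. On 3 June, when both were extracted, the HttQ111/+ Hdac2 KO libraries of series V were at 1253 and 1284 CPM and those of A and Z at 1572, 1578 and 1625 CPM. On 25 May the HttQ111/+ Hdac2 WT libraries were at 1116 (V) and 1166 CPM (Z).

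**Figure D2:**
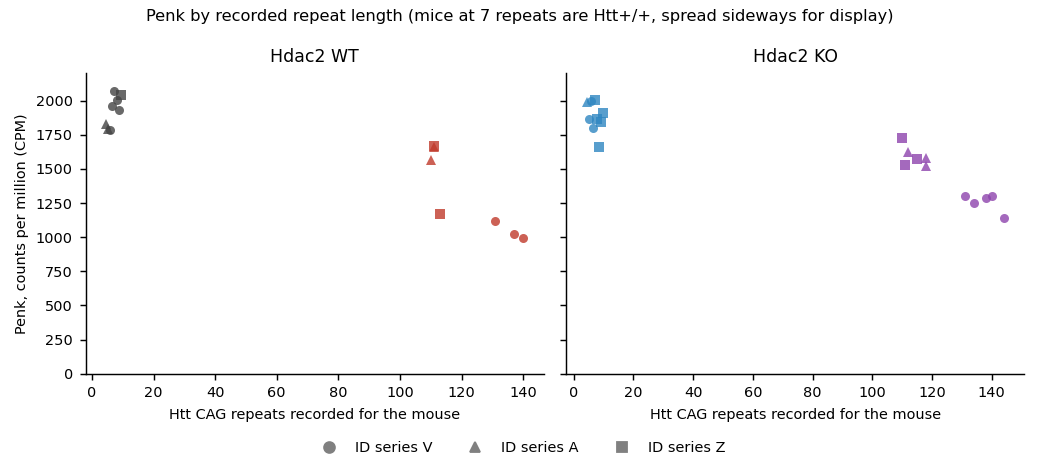
Penk level in CPM (vertical axis, linear from 0) against the CAG repeat number recorded for each mouse (horizontal axis), in Hdac2 WT (left) and Hdac2 KO (right) striata; each point is 1 library, shaped by ID series, and mice at 7 repeats are Htt+/+. Carriers with 131 to 144 repeats, all of series V, lie at 995 to 1304 CPM, below the carriers with 110 to 118 repeats in the same panel.

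Hdac2 loss did not pass the test for Penk in either background. The log2 differences were -0.16 ± 0.11 (SE, adjusted p = 0.344, 95% interval -0.37 to 0.05) in Htt+/+ and -0.03 ± 0.09 (adjusted p = 0.885, -0.21 to 0.15) in HttQ111/+ striata. The sign turned in 1 and in 7 alternative fits, respectively. Without the pair of Htt+/+ Hdac2 WT mice of ID series A the Htt+/+ difference was -0.26 (adjusted p = 0.0382), and it was -0.20 (adjusted p = 0.113) with 7 in place of 8 surrogate variables in that fit.

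Pdyn, the dynorphin precursor (chr2:129686565-129699844, minus strand), had nearly the same mean in all groups. The group means were 128 ± 37, 125 ± 26, 129 ± 41 and 127 ± 34 CPM (SD, in the order used for Hdac2 above), and the libraries ran from 75.9 to 218 CPM. Fitted Hdac2 KO differences were 0.26 ± 0.12 (log2, SE, adjusted p = 0.139) in Htt+/+ and 0.16 ± 0.10 (adjusted p = 0.355) in HttQ111/+ striata. With HttQ111 they were -0.06 ± 0.11 (adjusted p = 0.908) in Hdac2 WT and -0.15 ± 0.09 (adjusted p = 0.721) in Hdac2 KO striata, so no change was called in this other abundant precursor.

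Pnoc, the nociceptin precursor (chr14:65400673-65425472, minus strand), was near the limit of counting. Group medians were 25, 24, 20 and 22 counts per library. Its log2 differences lay between -0.20 and 0.23 with standard errors of 0.31 to 0.42, and none of the 4 comparisons passed the test. At this depth a difference of a size like that of Penk was not detectable for Pnoc.

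Among the receptors, Oprl1 rose and Oprd1 fell in Htt+/+ Hdac2 KO striata. Of the 6 members tested in that comparison 2 were called, 1 in each direction, against 17.8% of all genes tested (9.06% higher, 8.79% lower), and 3 had an unadjusted p under 0.05. In HttQ111/+ striata 1 of 6 was called, Oprl1, against 16.5% of all genes (7.68% higher, 8.86% lower). Against that background, 1 or 2 calls among 6 are no result about the members as a group.

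**Figure D3:**
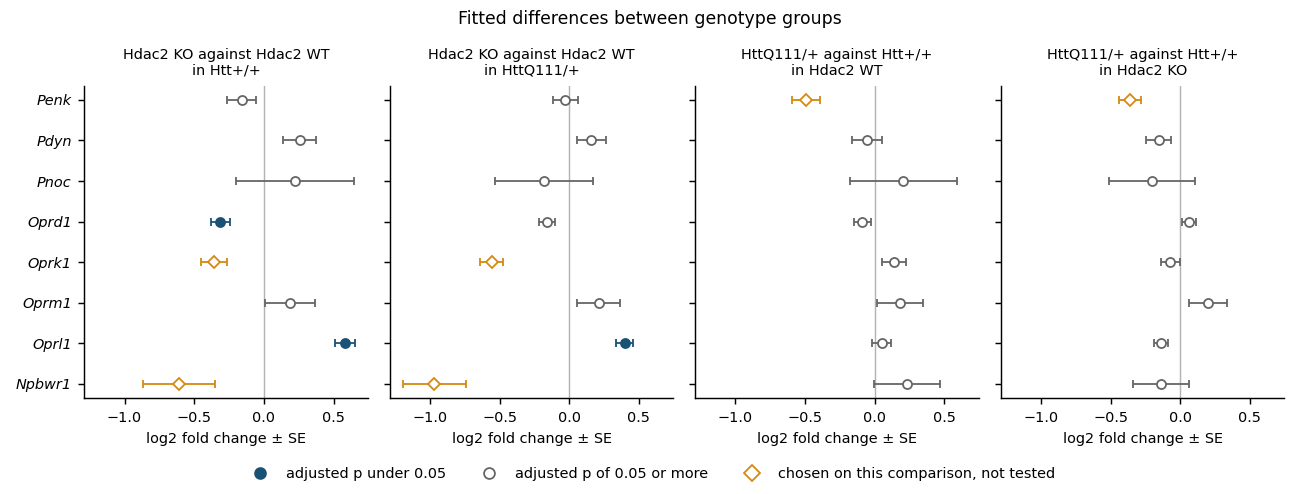
Fitted log2 fold changes ± SE (horizontal axes) of the 8 genes in the comparisons of Hdac2 KO with Hdac2 WT and of HttQ111/+ with Htt+/+. Filled circles have an adjusted p under 0.05 and diamonds are the pairs used to choose the gene, which were not tested. Oprl1 lies at 0.58 and 0.40 in the Hdac2 comparisons, and no tested member is filled in the HttQ111 comparisons.

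Oprl1, the nociceptin receptor (chr2:181715016-181719372, plus strand), had the largest difference of the tested members. Its lowest, median and highest levels were 8.65, 9.37 and 10.7 CPM in Htt+/+ Hdac2 WT and 11.7, 14.5 and 18.3 CPM in Htt+/+ Hdac2 KO libraries. The groups did not overlap. In HttQ111/+ striata they were 9.68, 11.1 and 13.3 CPM in Hdac2 WT and 10.7, 14.2 and 18.0 CPM in Hdac2 KO libraries, and the groups overlapped. The rise was 0.58 ± 0.07 (log2, SE; edgeR adjusted p = 4.26e-07), which is 1.5-fold, in Htt+/+ and 0.40 ± 0.06 (adjusted p = 2.27e-05), which is 1.32-fold, in HttQ111/+ striata. With surrogate variables replaced by extraction date the second was 0.19 (adjusted p = 0.519), and the first remained called at 0.51 or more in all 14 alternatives. Within the dates that held both genotypes, the Htt+/+ Hdac2 KO library of 27 May, of series Z, was at 14.2 CPM. The 3 Htt+/+ Hdac2 WT libraries of that date, all of series V, were at 9.25 to 10.0 CPM. Those of series A and Z, from other dates, were at 8.65 to 9.49 CPM. The HttQ111/+ Hdac2 KO library of 25 May, of series A, was at 13.4 CPM against 10.2 (Z) and 12 CPM (V) in 2 Hdac2 WT libraries.

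Oprd1, the delta receptor (chr4:132110726-132144486, minus strand), was the more abundant of the enkephalin receptors per exon kilobase. It ran from 35.9 through a median of 39.3 to 47.1 CPM in Htt+/+ Hdac2 WT and from 27.4 through 34.3 to 38.0 CPM in Htt+/+ Hdac2 KO libraries, with an overlap of the groups. In HttQ111/+ libraries the levels were 28.3, 37.3 and 39.0 CPM in Hdac2 WT and 19.2, 33.2 and 37.6 CPM in Hdac2 KO. The log2 difference was -0.31 ± 0.07 (SE; adjusted p = 0.000981, 0.805-fold) in Htt+/+ striata and -0.16 ± 0.06 (adjusted p = 0.0557) in HttQ111/+ striata. With extraction date in the fit these values were -0.08 (adjusted p = 0.818) and 0.10 (adjusted p = 0.807). On 27 May the single Htt+/+ Hdac2 KO library, of series Z, was at 37.8 CPM. The 3 Htt+/+ Hdac2 WT libraries of that date, all of series V, were at 35.9 to 40.9 CPM. Those of series A and Z, from other dates, were at 38.2 to 47.1 CPM. Date, series and genotype therefore cannot be told apart for Oprd1.

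Oprk1, the kappa receptor that dynorphin binds (chr1:5588493-5603153, plus strand), was chosen for its lower level in Hdac2 KO striata. Levels were 9.33, 16.4 and 22.3 CPM (lowest, median, highest) in Htt+/+ Hdac2 WT, 9.77, 12.2 and 16.4 CPM in Htt+/+ Hdac2 KO, 15.6, 19.3 and 24.5 CPM in HttQ111/+ Hdac2 WT and 9.48, 11.8 and 16.5 CPM in HttQ111/+ Hdac2 KO libraries. The groups overlapped in both backgrounds, in HttQ111/+ by the single Hdac2 KO library at 16.5 CPM. The fitted differences were -0.36 ± 0.09 (log2, SE) and -0.56 ± 0.08, which are 0.781-fold and 0.679-fold, and they lay between -0.47 and -0.17 and between -0.77 and -0.53 over the alternatives. On 27 May the single Htt+/+ Hdac2 KO library, of series Z, was at 14.1 CPM. The 3 Htt+/+ Hdac2 WT libraries of that date, all of series V, were at 16.8 to 22.3 CPM. Those of series A and Z, from other dates, were at 9.33 to 16.5 CPM, so series and genotype cannot be told apart on 27 May. On 25 May the single HttQ111/+ Hdac2 KO library, of series A, was at 10.7 CPM. The HttQ111/+ Hdac2 WT libraries of that date were at 16.0 (Z) and 24.5 CPM (V) and the Htt+/+ Hdac2 WT libraries at 9.33 to 16.3 CPM. Oprk1 also followed the ID series in every group, with means of 17.5, 23.4, 15.7 and 13.9 CPM in V and 13.4, 17.1, 11.6 and 10.9 CPM in A and Z mice, carriers and non-carriers alike, and the longer-repeat difference in carriers less that in Htt+/+ mice was -0.01 ± 0.14 (adjusted p = 0.992).

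Npbwr1 (chr1:5913707-5917398, minus strand) lies on the chromosome of Oprk1 and was chosen on the same comparison. In Htt+/+ striata its lowest, median and highest levels were 0.410, 0.713 and 1.45 CPM in Hdac2 WT and 0.249, 0.656 and 1.13 CPM in Hdac2 KO libraries, which overlapped almost wholly. The fitted difference there was -0.61 ± 0.26 (log2, SE), but it was -0.12 without surrogate variables and ranged from -0.85 to -0.01 over the alternatives. In HttQ111/+ striata the levels were 0.899, 1.27 and 2.95 CPM in Hdac2 WT and 0.304, 0.664 and 1.36 CPM in Hdac2 KO libraries, of which 1 reached into the Hdac2 WT range. The fitted difference was -0.97 ± 0.23 there, which is 0.511-fold, with a range of -1.61 to -0.83. The value of 2.95 CPM belonged to replicate 7, the library with the most Slc17a7, and without that library the mean of HttQ111/+ Hdac2 WT was 1.20 in place of 1.45 CPM and the fitted difference -0.94. The part of cortical RNA in the Npbwr1 level was not tested. Its peptide ligands did not pass the count filter, with 2 to 23 counts per library for Npb and 0 to 5 for Npw.

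Oprm1, the mu receptor (chr10:6758506-7037482, plus strand), did not pass the test in any comparison with all libraries in the fit. Group means were 4.83 ± 1.3, 5.31 ± 1.6, 5.24 ± 0.97 and 5.65 ± 1.4 CPM (SD), and the groups overlapped throughout. The Hdac2 KO differences were 0.19 ± 0.18 (log2, SE, adjusted p = 0.548) and 0.21 ± 0.15 (adjusted p = 0.40). Without the pair of Htt+/+ Hdac2 WT mice of ID series A the Htt+/+ difference was 0.54 (adjusted p = 0.00353), but 0.25 (adjusted p = 0.276) with 7 in place of 8 surrogate variables, and the HttQ111 difference in Hdac2 WT striata was 0.58 (adjusted p = 0.0371). Its interval overlaps that of Ipcef1 on the opposite strand over 151687 bp, and whether the counting used strand is not stated in the sources used here. Ipcef1 was at 5.71 to 58.9 CPM, and in its highest library Oprm1 was at 4.19 CPM, below its group mean.

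No tested member passed the adjusted threshold with HttQ111 in the fit with surrogate variables. In Hdac2 WT striata 0 of 7 were called by edgeR or by DESeq2, and 0 had an unadjusted p under 0.05, where 0.403% of all genes were called (0.181% higher, 0.222% lower) and 10.9% had an unadjusted p under 0.05. The 7 log2 differences ran from -0.09 (Oprd1) to 0.23 (Npbwr1). For Npbwr1 the unfitted means were further apart, 0.742 ± 0.34 CPM in Htt+/+ and 1.45 ± 0.69 CPM in HttQ111/+ Hdac2 WT striata (SD), and its difference was 0.96 without surrogate variables (adjusted p = 0.0978) and 1.03 with ID series in the fit (adjusted p = 0.0315). With ID series Oprk1 (0.39, adjusted p = 0.0233) and Oprl1 (0.29, adjusted p = 0.0140) were called as well, and with extraction date Oprk1 was called (0.36, adjusted p = 0.0457). The HttQ111/+ Hdac2 WT libraries had also entered the choice of Oprk1 and Npbwr1, as the higher side. The p-values of Oprk1 and Npbwr1 in this comparison are therefore no independent test. In Hdac2 KO striata 0 of 7 were called by either tool and 1 had an unadjusted p under 0.05, Oprl1 (log2 -0.14 ± 0.05, p = 0.0119, adjusted p = 0.485 in edgeR), against 0.00584% of genes called and 7.52% with an unadjusted p under 0.05.

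No interaction of the Htt and Hdac2 genotypes was called in these genes. In the test of whether the HttQ111 difference depended on Hdac2, 0 of 8 members were called by edgeR or DESeq2, with 0.00577% of all genes called. Only Oprl1 had an unadjusted p under 0.05 (log2 -0.19 ± 0.08, p = 0.0268, adjusted p = 0.867 in edgeR), against 5.63% of genes. For Penk, Oprk1 and Npbwr1 the interaction is built from the comparisons on which they were chosen. Their part in the 0 of 8 is therefore no independent test, and their values are a description. The Penk interaction was 0.13 ± 0.12 (SE) with a 95% interval of -0.11 to 0.38. That of Oprk1 was -0.21 ± 0.11 and that of Npbwr1 -0.39 ± 0.31.

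No member passed the adjusted threshold between females and males. By edgeR and by DESeq2 0 of 8 were called, against 0.0807% of all genes, and 1 had an unadjusted p under 0.05, against 8.32% of all genes. It was Pdyn, with a female minus male log2 difference of -0.28 ± 0.12 (SE, p = 0.0274, adjusted p = 0.537 in edgeR). The female mean of Pdyn was below the male mean in each of the 4 groups, from 104 against 142 CPM in Htt+/+ Hdac2 WT to 123 against 129 CPM in HttQ111/+ Hdac2 KO mice. Pdyn also followed the ID series, with group means of 142, 134, 168 and 149 CPM in V and 104, 117, 110 and 109 CPM in A and Z mice (same order of groups). Series V held more males than females in every group. The sex fit had no series term, and the part of series in the Pdyn difference was not tested.

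Rgs19, the nearest tested neighbour of Oprl1, also rose. It encodes a regulator of G protein signalling known to bind inhibitory alpha subunits and lies 21.1 kb from Oprl1 on the opposite strand. It was at 8.42 to 9.60 CPM in Htt+/+ Hdac2 WT and 14.6 to 18.2 CPM in Htt+/+ Hdac2 KO libraries, and at 8.01 to 13.6 CPM and 14.4 to 20.3 CPM in HttQ111/+ libraries. The Hdac2 genotypes did not overlap in either background. Its log2 differences were 0.86 ± 0.09 (SE; adjusted p = 4.12e-08) and 0.63 ± 0.08 (adjusted p = 6.49e-07), and it was called in all 14 alternatives of both. Tcea2, a transcription elongation factor 27.0 kb away, rose as well, by 0.32 ± 0.08 (adjusted p = 0.00523) and 0.21 ± 0.07 (adjusted p = 0.0467). The second call of Tcea2 held in 7 of 14 alternatives, with a lowest value of 0.014.

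The other called neighbours of Oprl1 within 500 kb were not of one direction. In Htt+/+ striata 2 of 22 tested neighbours rose, Rgs19 and Tcea2, and 5 fell, Prpf6, Pcmtd2, Dnajc5, Gmeb2 and Helz2, where 17.8% of all genes were called. In HttQ111/+ striata 4 rose, with Uckl1 and Zbtb46 added, and the same 5 fell, where 16.5% were called. These 5 fell by 0.09 to 0.27 on the log2 scale, less than Oprl1 and Rgs19 rose.

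**Figure D4:**
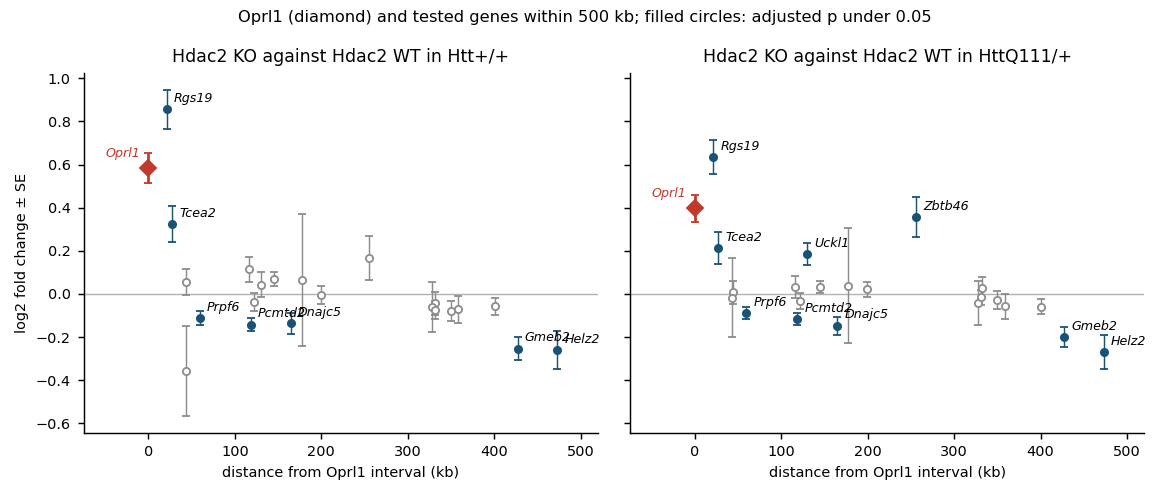
Fitted log2 fold change ± SE (vertical axis) of Oprl1 (diamond) and of the tested genes within 500 kb of it, against their distance in kb (horizontal axis), for Hdac2 KO against Hdac2 WT in Htt+/+ (left) and HttQ111/+ (right) striata. Filled circles have an adjusted p under 0.05. Rgs19 at 21.1 kb (0.86 and 0.63) lies above Oprl1 (0.58 and 0.40), and the called genes at 59.4 kb, 118.5 kb and 164.8 kb lie below 0.

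Promoter windows of Oprl1 and Rgs19 are printed because both genes moved together and are transcribed away from each other. They were taken from RefSeq on GRCm38.p6 and run from 250 bases before to 50 after the annotated start. Of the 8 members 4 matched the RefSeq promoter table (Pdyn, Oprm1, Oprd1 and Oprl1). Capitals mark the GC box GGGCGG, and TGACGTCA (the cyclic AMP response element) and CACGTG (an E box) were also searched, on both strands. The table lists 3 windows, some of them overlapping, for each of the 2 genes, and the first listed is printed. The printed Oprl1 window (chr2:181714766-181715065, plus strand) was 47.7% GC and held no match, as did the other 2 Oprl1 windows. The printed Rgs19 window (chr2:181693928-181694227, minus strand) was 66.7% GC and held 1 GC box. A second Rgs19 window (chr2:181693761-181694060) was 72.7% GC with 2 GC boxes and 1 E box, and the third (chr2:181691768-181692067) was 53.3% GC with no match. Of 32851 promoter windows of that length, 35.7% held a GC box, 1.79% the cyclic AMP response element and 7.15% the E box.
Oprl1 promoter: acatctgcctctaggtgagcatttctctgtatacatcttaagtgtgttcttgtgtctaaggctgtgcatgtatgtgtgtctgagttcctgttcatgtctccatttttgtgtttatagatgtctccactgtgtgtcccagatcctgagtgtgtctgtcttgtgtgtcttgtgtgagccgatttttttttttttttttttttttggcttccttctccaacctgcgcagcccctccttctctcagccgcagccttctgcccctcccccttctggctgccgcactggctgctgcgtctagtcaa
Rgs19 promoter: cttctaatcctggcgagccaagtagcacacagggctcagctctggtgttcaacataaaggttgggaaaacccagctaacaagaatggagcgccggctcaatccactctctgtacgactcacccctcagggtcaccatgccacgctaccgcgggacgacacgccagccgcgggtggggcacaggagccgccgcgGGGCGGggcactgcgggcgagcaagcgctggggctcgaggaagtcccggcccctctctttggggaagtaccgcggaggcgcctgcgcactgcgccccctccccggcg

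Neighbours of the other members were counted in the same way. Over all 8 members, 77 of the 150 genes within 500 kb were tested in the Htt+/+ comparison of Hdac2 genotypes, and 5 rose and 11 fell, where 17.8% of all genes were called. In HttQ111/+ striata 79 were tested, and 7 rose and 9 fell, where 16.5% were called. The single tested neighbour of Oprk1, the 2 of Npbwr1 and the 8 of Penk were not called in any of the 4 genotype comparisons. Of the 23 tested neighbours of Oprd1, Rcc1 and Sesn2 rose and Epb4.1, Dnajc8 and Ptafr fell in Htt+/+ striata, and Rcc1 and Trnau1ap rose and Epb4.1 fell in HttQ111/+ striata. Near Pnoc, Hmbox1 and Scara3 fell in both backgrounds and Elp3 in Htt+/+, near Pdyn Sirpa fell in HttQ111/+, and Ipcef1, which overlaps Oprm1, was called as higher in both. For Ipcef1 the HttQ111/+ group means lay the other way, at 16.5 CPM in Hdac2 WT and 9.73 CPM in Hdac2 KO striata, with the highest library at 58.9 CPM in Hdac2 WT, and the fitted difference of 0.32 was -0.81 with extraction date in the fit. The calls of Ipcef1, Helz2 and Hmbox1 held in 6 or 7 of 14 alternatives in each background, those of Ptafr in 6 and Trnau1ap in 4. With HttQ111, 0 neighbours were called by edgeR or DESeq2 in either Hdac2 background, where 7 of 78 and 4 of 79 had an unadjusted p under 0.05, against 10.9% and 7.52% of all genes.

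Some marker genes of the MSN compartments, with which mu receptor expression is known to vary, moved between the Hdac2 genotypes. Of all genes tested, 17.8% were called in Htt+/+ and 16.5% in HttQ111/+ striata. The marker differences are given for the fit with surrogate variables alone, and extraction dates nearly followed the Hdac2 genotype. Of the 5 striosome markers 2 rose (Lypd1 by 0.77 and 0.66, Kremen1 by 0.41 and 0.49 on the log2 scale) and 1 fell (Rasgrp1) in both backgrounds, with sums of 1065 to 1272 CPM in Htt+/+ Hdac2 WT, 991 to 1306 CPM in Htt+/+ Hdac2 KO, 1015 to 1199 CPM in HttQ111/+ Hdac2 WT and 946 to 1162 CPM in HttQ111/+ Hdac2 KO libraries. All 3 matrix markers (Epha4, Rasgrp2, Calb1) fell in both, with sums of 834 to 1010 CPM in Hdac2 WT and 684 to 798 CPM in Hdac2 KO libraries of Htt+/+ mice, which did not overlap, and of 716 to 966 CPM and 703 to 823 CPM in those of HttQ111/+ mice, which did. Of the direct-pathway markers Tac1 (0.27 and 0.29) rose in both backgrounds, Chrm4 (0.16) in Htt+/+ and Sfxn1 (0.23) in HttQ111/+ striata, and of the indirect-pathway markers Drd2 (-0.16) fell in Htt+/+ striata. Among markers of other cells and regions, Nos1 of interneurons (-0.20) and Ttr of the choroid plexus (-3.12) fell and Gnb4 of the claustrum (0.31) rose in Htt+/+ striata, and Synpo2 of the claustrum (0.27) rose in HttQ111/+ striata. Ttr was at 0.234 to 171 CPM in Htt+/+ Hdac2 WT and 0.758 to 14.7 CPM in Htt+/+ Hdac2 KO libraries, and claustrum markers summed to 74.1 to 103 CPM and 94.3 to 135 CPM. None of these markers was at 0 in a whole group, and their part in the receptor differences was not tested.

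The wider opioid pathway was followed through 43 genes of peptide processing and receptor signalling, of which 41 were tested and Npb and Npw did not pass the filter. In Htt+/+ striata 7 rose and 5 fell with Hdac2 loss, 29.3% of those tested against 17.8% of all genes, and the median log2 difference of the list was 0.03 beside -0.0014 over all genes. In HttQ111/+ striata 7 rose and 5 fell as well, against 16.5% of all genes, with a median of 0.01. With extraction date, which nearly followed the Hdac2 genotype, in place of the surrogate variables, 0 were called in Htt+/+ and 2 in HttQ111/+ striata. With HttQ111 in Hdac2 WT striata 0 rose and 2 fell, against 0.403% of all genes, with a median of -0.0039. In Hdac2 KO striata edgeR called 0, DESeq2 called 4, and 10 had an unadjusted p under 0.05, against 7.52% of all genes.

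Kcnj3, a subunit of the potassium channel that opioid receptors open through G proteins, rose most. It was at 22.5 ± 1.6 CPM in Htt+/+ Hdac2 WT and 34.2 ± 5.9 CPM in Htt+/+ Hdac2 KO striata (SD), a log2 difference of 0.65 ± 0.06 (SE; adjusted p = 1.27e-09). In HttQ111/+ striata the fitted rise was 0.53 ± 0.05 (adjusted p = 5.30e-09). The unfitted means there were closer, at 31.8 ± 14 CPM in Hdac2 WT and 35.1 ± 4.0 CPM in Hdac2 KO (SD), and 1 of the Hdac2 WT libraries reached 63.5 CPM. In HttQ111/+ striata 9 of 14 alternatives kept the call, with a lowest value of 0.10. Gng7, the gamma subunit of the striatal G protein that activates adenylyl cyclase, rose by 0.24 ± 0.04 (adjusted p = 2.60e-05) and 0.20 ± 0.03 (adjusted p = 7.87e-05). Gnao1, an inhibitory alpha subunit, fell by 0.21 ± 0.04 (adjusted p = 0.000159) and 0.19 ± 0.03 (adjusted p = 0.000108) on the log2 scale. Gng7 and Gnao1 kept their calls in 13 of 14 alternatives in each background. In Htt+/+ striata the call lost was that with extraction date, with which no pathway gene was called there. Adrbk2, a receptor kinase, rose by 0.21 ± 0.04 (adjusted p = 0.000465) in Htt+/+ striata. Ppp1r1b, which encodes the MSN phosphoprotein DARPP-32 and whose regulatory sequence drives the Cre transgene, rose by 0.31 ± 0.05 (adjusted p = 3.48e-05) in HttQ111/+ striata.

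With HttQ111 the 2 genes of the pathway that fell in Hdac2 WT striata were signalling genes typical of MSNs. Ppp1r1b was at 1574 ± 128 CPM without and 1190 ± 143 CPM with the allele (SD), a log2 difference of -0.28 ± 0.05 (SE; adjusted p = 0.0121). Rgs9, an accelerator of G protein inactivation, was at 846 ± 40 CPM and 672 ± 103 CPM, a log2 difference of -0.26 ± 0.05 (adjusted p = 0.0177).

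The members varied with different genes across libraries. After the mean of each genotype group was subtracted, Penk was most like Arpp19 (r = 0.86), Pde1b and Gabrd, and Pdyn most like Lin7a (r = 0.88), Gad2 and Necap1, over 35 libraries and 14112 genes compared. Zfp106 and Elfn2 were among the 3 genes most like Oprd1. Oprl1 was most like Fbxo21 (r = 0.82), Phf20 and Dgke, and Oprk1 most like Ildr2 (r = 0.78), 5730455P16Rik and Tmtc1. Oprm1 went with Atp8a2 (r = 0.78), Bmpr2 and Aff2, Npbwr1 with Amph (r = 0.74), Bean1 and Ndrg3, and Pnoc, the member with the fewest reads, with Nmb (r = 0.64), Serpini1 and Pak1. Among the members themselves the highest correlation was that of Oprk1 with Oprl1 (r = 0.63) and the lowest that of Oprd1 with Oprl1 (r = -0.53). These correlations describe libraries that share depth, dissection and extraction date, and no test was applied.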

How the data were processed

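RNA of 35 mouse striata had been made into stranded mRNA libraries. The authors aligned paired reads to GRCm38 (Ensembl annotation) with GSNAP, counted unique alignments over whole gene intervals, introns included, with bedtools, and deposited these raw counts without normalization. Whether strand was used in the counting is not given in the sources used here.

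Of 39109 entries, 92 ERCC spike-ins, 6152 genes of at most 250 nt and 2 mitochondrial rRNA genes were left out. Libraries held 51403599 to 78158006 counts. A gene was tested where 1 or more of the groups compared had 6 or more counts in each of its libraries, by the quasi-likelihood F test of edgeR 4.0.16 (R 4.3.3, older form of the method) with TMM scaling and surrogate variables from sva 3.50.0, re-estimated per comparison with their number set by seeded permutations, and Benjamini-Hochberg adjustment over all genes tested (threshold 0.05). The sex comparison used genotype group and sex, and the repeat comparison genotype group split by ID series plus sex. Standard errors were derived from the F statistic. CPM values were computed from the deposited counts over TMM-scaled library sizes, and correlations from log2(CPM + 0.5). Exon lengths came from a newer GRCm38 annotation than that of the counts and were taken within the counted intervals. Intervals cover 95%. The procedure was tested on simulated data.

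Groups, sexes, series and dates came from the labels and the authors' sample table. The 8 members, the pathway, neighbour and marker lists and the tests were chosen with earlier results of these data known. Besides the members, the text names Hdac2, up to 4 called pathway genes with the lowest adjusted p per comparison, called neighbours within 500 kb, markers, and the 3 genes most like each member (a few of these genes are not reported here); Kcnj3's highest library and the values of single libraries were singled out after they were seen. Alternatives covered covariates, libraries, scaling, test and filter, with DESeq2 1.42.0 among them. Exon-level counts were not analysed here.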

Additional observations from a re-analysis of the deposited data

Results flagged for a closer look

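Npbwr1 stood at 2.95 CPM in HttQ111/+ Hdac2 WT replicate 7, far from the other 6 libraries of its group, the nearest of which was at 1.49 CPM. The gap was 0.713 of the group's range. This was 1 such value among 24 groups of 4 to 10 libraries examined, of which chance marks about 1 in 20.

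Penk differed between ID series V and series A and Z by -0.467 more (log2) in HttQ111/+ than in Htt+/+ mice, by the test of that difference itself (edgeR adjusted p = 0.00455, 35 libraries). Penk had been chosen for its lower level in the HttQ111/+ libraries, which this test uses as well. The lower Penk of series V was seen in all 3 of 3 HttQ111/+ Hdac2 WT and 5 of 5 HttQ111/+ Hdac2 KO libraries of that series, each below every series A or Z library of its group.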

How the results depend on the processing

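Oprl1 rose and was called in all 14 alternatives in Htt+/+ (0.51 to 0.69) and in 13 of 14 in HttQ111/+ striata (0.19 to 0.41), Rgs19 in all 14 of both, and Oprd1 was called as lower in 13 of 14 in Htt+/+ striata; the calls lost were those with extraction date. The values below are log2 differences of uncalled results or lost calls that changed sign, and counts of genes called (in parentheses the value of the main design), where they moved by over 1.5 times; the causes were not tested. Among single genes 138 values in all lost a call, 12 gained one and 7 untested values moved, with the direction kept.

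With surrogate variables replaced by extraction date, Hdac2 KO differences changed sign in Htt+/+ striata for Penk (0.093), Pdyn (-0.036), Pnoc (-0.68), Helz2 (0.094) and Hmbox1 (0.049), in HttQ111/+ striata for Penk (0.31), Pdyn (-0.12), Oprd1 (0.10), Helz2 (0.13), Hmbox1 (0.048), Ipcef1 (-0.81) and Trnau1ap (-0.021), and the HttQ111 difference in Hdac2 KO for Oprd1 (-0.040). Hdac2 KO called 1 member (2), 2 neighbours (16) and 0 pathway genes (12) in Htt+/+ and 0 members (1), 2 neighbours (16) and 2 pathway genes (12) in HttQ111/+ striata, and HttQ111 in Hdac2 WT called 1 member (0, Oprk1 at 0.36), 2 neighbours (0) and 7 pathway genes (2).

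With ID series in their place, Hdac2 KO differences changed sign in HttQ111/+ for Penk (0.14), Pdyn (-0.011) and Ipcef1 (-0.63) and in Htt+/+ for Pnoc (-0.045). So did HttQ111 differences of Pdyn in Hdac2 WT (0.10) and Oprd1 in Hdac2 KO (-0.043), and the interaction of Oprm1 (-0.11). HttQ111 in Hdac2 WT then called 3 members (0): Oprk1 (0.39), Oprl1 (0.29) and Npbwr1 (1.03), with 4 neighbours (0) and 7 pathway genes (2). Oprk1 and Npbwr1 had been chosen partly on the HttQ111/+ Hdac2 WT libraries of this comparison. Without any covariate and with sex alone, respectively, the changes were Penk (0.13 and 0.13) and Ipcef1 (-0.76 and -0.56) with Hdac2 loss in HttQ111/+, Pnoc (-0.11 and -0.12) in Htt+/+, Oprd1 with HttQ111 in Hdac2 KO (-0.083 and -0.076), the interaction of Oprm1 (-0.029 and -0.0082), the interaction of Pdyn without covariates (0.014), Pdyn with Hdac2 loss in HttQ111/+ with sex (-0.0077), and 10 neighbours (16) called in HttQ111/+ in both.

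Replicate numbers did not pair the mice. Libraries with the same number in different groups had a median correlation of 0.06 (45 pairs, -0.32 to 0.50) against -0.0065 with different numbers (410 pairs), and 5 of 35 correlated best with their own number. With the replicate block, sign changes were Penk (0.098) and Ipcef1 (-0.44) with Hdac2 loss in HttQ111/+, Pnoc (-0.10) in Htt+/+, Pdyn (0.079), Pnoc (0.021) and Oprd1 (-0.12) with HttQ111 in Hdac2 KO, the interaction of Pdyn (0.10), Penk by sex (-0.086) and Oprk1 by longer repeats (0.025). The block called 0 members by longer repeats (1), 9 neighbours (16) and 5 pathway genes (12) with Hdac2 loss in HttQ111/+, and 1 pathway gene with HttQ111 in each Hdac2 background (2 and 0).

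With only the libraries compared, changes were Penk (0.033) and Pdyn (-0.00094) with Hdac2 loss in HttQ111/+, Pnoc (-0.10) in Htt+/+, Pdyn (0.0094) and Oprm1 (-0.056) with HttQ111 in Hdac2 WT, and 0 pathway genes (2) there. In males only they were Npbwr1 with HttQ111 in Hdac2 WT (-0.12), the interaction of Oprm1 (-0.016) and Pnoc with Hdac2 loss in HttQ111/+ (0.058); called were 7 neighbours (16) and 7 pathway genes (12) in Htt+/+, 2 members (1), 5 neighbours (16) and 6 pathway genes (12) in HttQ111/+, and 0 pathway genes (2) with HttQ111 in Hdac2 WT. The newer quasi-likelihood form turned the interaction of Oprm1 (-0.0027). Without the Htt+/+ Hdac2 WT mice of series A it was -0.31, the Hdac2 KO differences of Pnoc in Htt+/+ (-0.063) and Penk in HttQ111/+ (0.014) changed sign, with 4 members (2, Penk at -0.26 and Oprm1 at 0.54 added) called in Htt+/+ and 2 (1) in HttQ111/+ with Hdac2 loss, and 1 member (0, Oprm1 at 0.58), 1 neighbour (0) and 5 pathway genes (2) with HttQ111 in Hdac2 WT. DESeq2 called 2 members (1) with Hdac2 loss in HttQ111/+, and 6 (2) and 4 (0) pathway genes with HttQ111 in Hdac2 WT and KO, and no filter on low counts called 2 members (1) with Hdac2 loss in HttQ111/+; the added member was Oprd1 each time, also in males only.

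The next settings were chosen after seeing the data. The number of surrogate variables, set by permutations, was 9 under 5 of 5 seeds with all libraries, and 7 or 8 without the series A mice in 3 of the comparisons. With 7 there, the added calls of Penk (-0.20) and Oprm1 (0.25) were lost and Pnoc was 0.053. Without HttQ111/+ Hdac2 WT replicate 7, the interaction of Oprm1 (-0.021), Pnoc by sex (-0.020) and Pnoc by longer repeats (0.046) changed sign, and 2 members (1) were called with Hdac2 loss in HttQ111/+. Without the 3 libraries over 100 CPM of Slc17a7 these were -0.049, -0.18 and 0.0091, and 1 pathway gene (2) was called with HttQ111 in Hdac2 WT. Depth limits Pnoc and Npbwr1, at 6 to 148 counts per library.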
